A study of Mus musculus with 17 samples.

Results

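Notch and T lineage regulators were examined by the levels of 8 listed genes, Notch1, Notch2, Hes1, Tcf7, Lef1, Satb1, Bcl11b and Gata3, in 5 progenitor fractions of mouse bone marrow. Members were every probe set whose single gene symbol was one of these names. The rule gave 17 probe sets of 7 genes, among 45037 probe sets and 18193 genes on the arrays, and Tcf7 was not analysed here. Each of the 17 arrays held RNA of cells sorted from adult mice of 10 to 14 weeks, with no genotype or treatment given. The common lymphoid progenitor fraction (CLP) was gated as Lin-Sca1lowKitlowIL7r+Flk2+ and had 3 arrays. The other fractions were Lin-Sca1-Kit+. The preGM fraction, on the path to granulocytes and monocytes, was Itga2b-FcgRlowSlamf1-Englow (3 arrays). The preMegE fraction, on the path to both megakaryocytes and red cells, was Itga2b-FcgRlowSlamf1+Englow (5 arrays), and the preCFUE fraction, on the erythroid path, was Itga2b-FcgRlowSlamf1+Enghigh (3 arrays). The megakaryocyte progenitor fraction (MkP) was Itga2b+Slamf1+ (3 arrays). Lin- stands for the absence of markers of mature blood cells. Nothing in the labels tells separate mice or sorts apart within a fraction, and the spread behind each p-value may therefore be technical.

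Notch receptors are cell surface proteins that ligands on a neighbouring cell cause to be cut, which frees an intracellular part that enters the nucleus, binds Rbpj and switches on targets such as Hes1, a repressor of transcription. In the thymus, Notch1 signalling commits incoming progenitors to the T lineage. Tcf7 and Gata3 are switched on early in that commitment and Bcl11b completes it, while Lef1 is a close relative of Tcf7 and Satb1 is a chromatin organiser needed for normal T cell development.

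Marker lists were examined for CLP, preGM, MkP and preCFUE. The preMegE fraction had no list of its own, only 1 shared with MkP and preCFUE (Gata1, Klf1, Zfpm1 and Gfi1b). All 4 of these were higher in preMegE than in preGM. All 6 CLP markers listed for this purpose (Il7r, Flt3, Dntt, Rag1, Rag2 and Ly6d) were higher in CLP than in preGM, and all 6 preGM markers, among them Mpo and Elane, were lower in CLP and in preMegE than in preGM. All 5 MkP markers were higher in MkP than in preMegE, and 4 of 5 preCFUE markers were higher in preCFUE than in preMegE. Il7r and Flt3 (Flk2) are part of the CLP gate, and the MkP marker Itga2b is part of the MkP gate. The sort itself favoured the differences in these genes. CLP replicate 2 correlated more closely, on average, with the preGM arrays (r = 0.962) than with the other CLP arrays (r = 0.948). Results that rest on it are therefore also given without it. By the CLP and preGM marker lists it was not preGM-like: among CLP arrays its summed CLP markers were highest (17536) and its summed preGM markers lowest (1299). Among CLP arrays it was also highest in summed preCFUE markers (1352, beside 644 and 693) and summed MkP markers (147, beside 111 and 128). CLP replicate 3 had the lowest r with its own fraction (0.944). Array medians lay between 15.96 and 19.07 intensity units. The values are RMA intensities, an array's background-corrected and summarised brightness for a probe set. Each fold change was taken from log2(intensity + 16), which makes the change of a dim gene look smaller, and is given ± SE. A difference passed the test where its adjusted p from limma was under 0.05. In such sorted samples, fewer cells of a type and less RNA per cell cannot be told apart.

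Notch1 and Satb1 were high in CLP and preGM and low in preMegE, MkP and preCFUE. Notch2 was bright in every fraction and was lowest in MkP. Hes1 was dim everywhere and was higher in CLP than in preGM, preMegE and preCFUE. Lef1, Bcl11b and Gata3 read near the median of the arrays in all 5 fractions.

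The promoters of the 3 bright members are shown because Notch1 and Satb1 had like patterns over the fractions and Notch2 did not. Each line is the 250 bases before the most upstream start of the gene in RefSeq (build GRCm38.p6), 5′ to 3′ on the gene's strand, and 7 of the 8 listed genes had such a window. Capitals mark GGAA or its complement TTCC, the core of sites for ETS factors. Notch1 is at chr2:26503823-26504072 on the minus strand, Satb1 at chr17:51833291-51833540 on the minus strand and Notch2 at chr3:98013288-98013537 on the plus strand.
Notch1: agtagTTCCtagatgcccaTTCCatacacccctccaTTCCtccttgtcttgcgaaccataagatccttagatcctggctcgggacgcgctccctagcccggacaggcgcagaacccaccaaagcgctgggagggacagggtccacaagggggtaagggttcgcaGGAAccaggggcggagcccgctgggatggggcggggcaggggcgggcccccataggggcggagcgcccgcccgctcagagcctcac
Satb1: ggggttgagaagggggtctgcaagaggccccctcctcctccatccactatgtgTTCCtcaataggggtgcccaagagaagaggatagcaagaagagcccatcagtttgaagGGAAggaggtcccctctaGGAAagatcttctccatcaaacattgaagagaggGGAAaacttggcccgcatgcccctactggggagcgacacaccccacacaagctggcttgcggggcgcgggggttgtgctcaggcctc
Notch2: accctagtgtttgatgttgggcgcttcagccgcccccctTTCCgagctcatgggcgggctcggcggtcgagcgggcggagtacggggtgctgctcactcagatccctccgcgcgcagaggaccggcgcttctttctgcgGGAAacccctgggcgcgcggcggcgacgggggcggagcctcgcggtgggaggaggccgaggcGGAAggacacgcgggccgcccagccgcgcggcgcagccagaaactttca
On both strands together, GGAA was found 4 times in the Notch1 window, 4 times in the Satb1 window and 3 times in the Notch2 window. It occurred in 93.4% of all 32851 windows of this length. CANNTG, the E box bound by E proteins, occurred in 66.2% of windows and in none of these 3. TGGGAA, the core of the Rbpj site, which itself holds GGAA, occurred in 21.6% of windows and also in none of these 3. Satb1 has 5 annotated starts, and 2 of its 5 windows held CANNTG. Such matches describe these letters only.

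Notch1, the receptor that commits progenitors to the T lineage, was measured by 2 probe sets, of which 1418634_at was the brighter. It read 2998, 2935 and 2635 on CLP replicates 1, 2 and 3 (mean 2856 ± 194, SD, n = 3). In preGM it read 837, 973 and 1493 (1101 ± 346, n = 3). Every CLP array lay above every preGM array. In preMegE it read 62.8, 52.8, 81.7, 57.2 and 43.8 (59.7 ± 14.1, n = 5), in MkP 75.9, 39.6 and 75.2 (63.6 ± 20.8, n = 3) and in preCFUE 56.9, 47.7 and 41.3 (48.6 ± 7.85, n = 3). These 3 fractions overlapped one another, and all lay below the lowest preGM array.

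Notch1 was 2.59-fold higher in CLP than in preGM by mean intensity, and the log2 fold change was 1.40 ± 0.23 (adjusted p = 0.0019, limma). Without CLP replicate 2 it was 1.38 (adjusted p = 0.0031). It did not pass when the model held these 6 arrays alone (adjusted p = 0.0592). From preGM to preMegE the level fell by 3.86 ± 0.21 on the log2 scale (adjusted p = 1.96e-08), or 18.5-fold by mean intensity. The neighbouring fractions below did not pass: MkP against preMegE gave 0.05 (95% interval -0.39 to 0.49, adjusted p = 0.921), and preCFUE against preMegE gave -0.21 (-0.66 to 0.23, adjusted p = 0.843). The order of Notch1 levels was therefore CLP, then preGM, then the other 3 without a difference beyond their spread. The dimmer probe set, 1418633_at, kept that order between CLP (200 ± 55.1), preGM (77.8 ± 15.96) and preMegE (31.8 ± 9.73), with log2 fold changes of 1.18 ± 0.19 for CLP against preGM and -0.98 ± 0.17 for preMegE against preGM (adjusted p = 0.0018 and 0.0022).

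**Figure D1:**
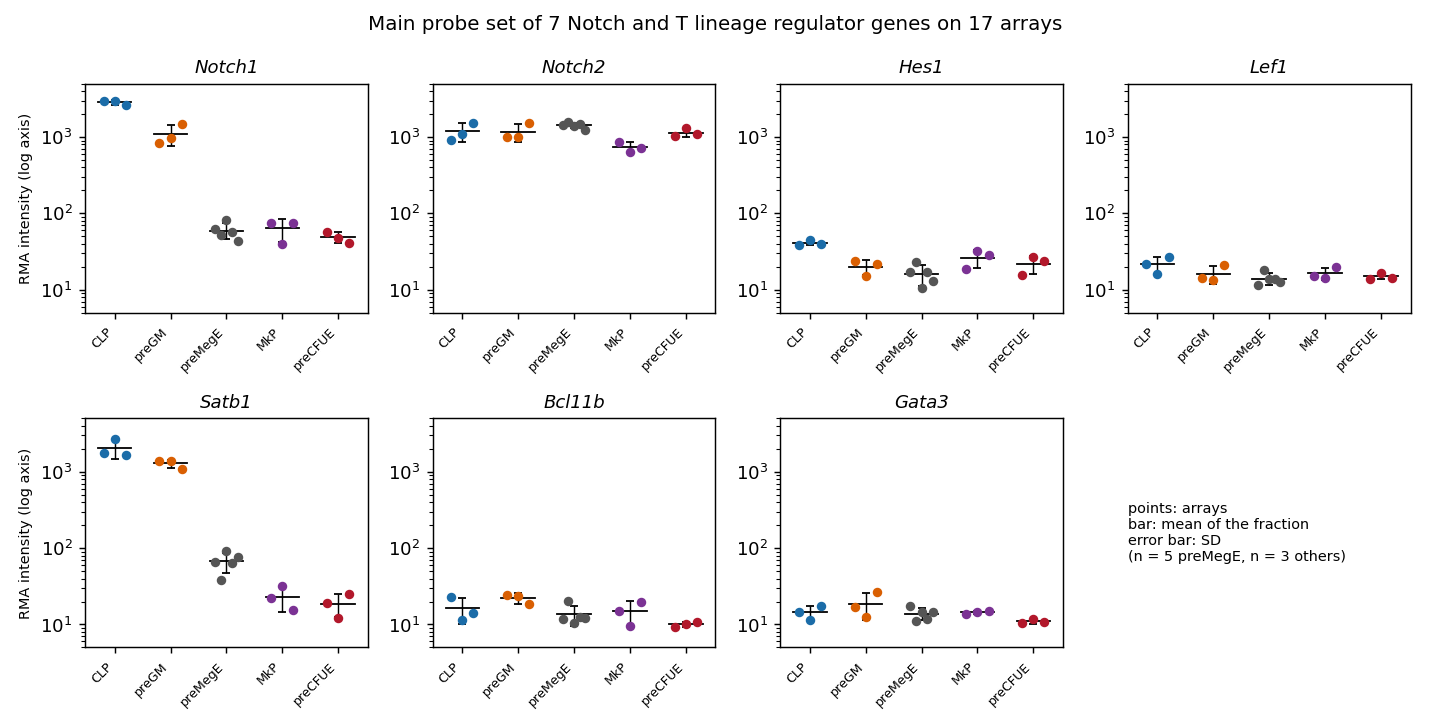
RMA intensity on a log axis of the main probe set of each of 7 genes in 5 fractions, with points for arrays, a bar for the mean and error bars for the SD (n = 5 for preMegE, n = 3 for the others). Notch1 and Satb1 read 837 or more on every CLP and preGM array and are at most 92.1 on every preMegE, MkP and preCFUE array, while Lef1, Bcl11b and Gata3 reach at most 26.9 on any of the 17 arrays.

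Notch2, a receptor with roles in several blood cell types such as marginal zone B cells, was bright throughout on probe set 1455556_at. It read 919, 1095 and 1547 in CLP (1187 ± 324), 994, 1007 and 1528 in preGM (1176 ± 305) and 1018, 1321 and 1093 in preCFUE (1144 ± 158). These 3 fractions overlapped one another. In preMegE it read 1433, 1565, 1381, 1499 and 1239.7 (1423 ± 124, n = 5), and in MkP 857, 643 and 729 (743 ± 108, n = 3). Every MkP array lay below every array of the other 4 fractions.

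From preMegE to MkP, Notch2 fell by 0.93 ± 0.17 on the log2 scale (adjusted p = 0.0047), or 1.92-fold by mean intensity. After quantile normalization the difference was -0.66 (adjusted p = 0.177), and with the mean over both probe sets it was -0.43 (adjusted p = 0.0506). MkP against preCFUE gave -0.61 ± 0.19 (adjusted p = 0.0613), CLP against MkP 0.64 ± 0.19 (adjusted p = 0.0579) and MkP against preGM -0.63 ± 0.19 (adjusted p = 0.0704), none of which passed. CLP and preGM gave 0.01, with a 95% interval from -0.41 to 0.42 (adjusted p = 0.983). The neighbours CLP against preMegE (-0.29, adjusted p = 0.286) and preCFUE against preGM (-0.02, adjusted p = 0.992) did not pass either. The other probe set, 1451889_at, was dim in all fractions, with means from 16.8 to 26.5, did not pass the test over the 5 fractions (adjusted p = 0.376) and correlated weakly with the bright one over the 17 arrays (r = 0.120). The fall in MkP thus rests on 1 of 2 probe sets.

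Hes1, the classic Notch target, had 1 probe set, 1418102_at. It read 38.8, 44.9 and 40.3 in CLP (41.3 ± 3.18, n = 3) and 23.7, 14.9 and 21.6 in preGM (20.1 ± 4.57, n = 3). In preMegE it read 16.8, 23.3, 10.5, 16.95 and 13.1 (16.1 ± 4.81, n = 5). CLP lay above every array of both. MkP read 18.6, 32.0 and 28.7 (26.4 ± 6.99, n = 3), and preCFUE 15.6, 26.7 and 23.5 (21.9 ± 5.69, n = 3), so that CLP held the 3 highest of the 17 arrays. The log2 fold change was 0.67 ± 0.16 for CLP against preGM (adjusted p = 0.0174), 0.85 ± 0.14 against preMegE (adjusted p = 9.32e-04) and 0.61 ± 0.16 against preCFUE (adjusted p = 0.0136). Against MkP it was 0.45 ± 0.16 and did not pass (adjusted p = 0.111). No pair among the other 4 fractions passed in limma (1 had an unadjusted p under 0.05, MkP against preMegE), and their order, MkP, preCFUE, preGM and preMegE, was not separated beyond the spread (neighbours at adjusted p = 0.625, 0.943 and 0.801).

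The CLP difference in Hes1 stayed past the test without CLP replicate 2 (0.63 against preGM, adjusted p = 0.0243). It did not without CLP replicate 3 (0.69, adjusted p = 0.0518), without preGM replicate 2 (0.57, adjusted p = 0.0819) or when the model held the 6 arrays alone (adjusted p = 0.0682). The difference from preCFUE did not pass without preCFUE replicate 1 (0.48, adjusted p = 0.0757) or with array weights (0.58, adjusted p = 0.0552).

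Satb1, the chromatin organiser, had 5 probe sets, of which 1416008_at was the brightest. It read 1749.5, 2651 and 1655 in CLP (2018 ± 549.7, n = 3) and 1369, 1384 and 1097 in preGM (1284 ± 162, n = 3). CLP lay above preGM on every array, and CLP replicate 2 was the highest. In preMegE it read 65.3, 38.1, 92.1, 64.1 and 75.5 (67.0 ± 19.7, n = 5), in MkP 22.1, 31.8 and 15.3 (23.1 ± 8.29, n = 3) and in preCFUE 19.09, 12.2 and 25.1 (18.8 ± 6.46, n = 3). The preMegE arrays lay between preGM and the 2 later fractions without overlap.

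From preGM to preMegE, Satb1 fell by 3.996 ± 0.22 on the log2 scale (adjusted p = 2.66e-08), or 19.2-fold by mean intensity. It fell further from preMegE to MkP, by 1.07 ± 0.22 (adjusted p = 0.0089), and from preMegE to preCFUE, by 1.23 ± 0.22 (adjusted p = 0.0035). MkP and preCFUE did not differ beyond their spread (0.16, 95% interval -0.37 to 0.69, adjusted p = 0.773). The fall to MkP did not pass without MkP replicate 3 (-0.92, adjusted p = 0.0600). Probe set 1416007_at passed for both falls (-0.79 and -0.99, adjusted p = 0.0121 and 0.0027), and 1436182_at passed for neither (-0.31 and -0.45, adjusted p = 0.212 and 0.0809). Neither did 1439315_at (-0.02 and -0.09) or 1439449_at (0.07 and 0.11), so that both falls passed on 2 of 5 probe sets.

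Whether Satb1 was higher in CLP than in preGM depended on the probe set. On 1416008_at the log2 fold change was 0.62 ± 0.25 and did not pass (adjusted p = 0.112), and without CLP replicate 2 it was 0.41 (adjusted p = 0.261). The other 4 probe sets passed, with 0.88 ± 0.19 for 1416007_at, 1.07 ± 0.15 for 1436182_at, 0.57 ± 0.14 for 1439315_at and 1.86 ± 0.29 for 1439449_at (adjusted p = 0.0115, 6.32e-04, 0.0245 and 0.0016). The last of these read 72.6, 148 and 286 in CLP and 28.9, 23.8 and 35.8 in preGM. After quantile normalization 1416008_at gave 1.05 (adjusted p = 0.0038), and the mean over the 5 probe sets gave 1.00 (adjusted p = 3.05e-05). All 5 had CLP above preGM on every array, with sizes that differed by probe set. They read the same gene on the same arrays, so their agreement is not independent. The share of all probe sets without such overlap is not given here. The dim 1439315_at showed no fall from preGM to preMegE (-0.01, 95% interval -0.29 to 0.26), at levels of 9.33 ± 0.74 and 9.10 ± 1.26, and on 1439449_at the difference of -0.79 did not pass (adjusted p = 0.131).

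**Figure D2:**
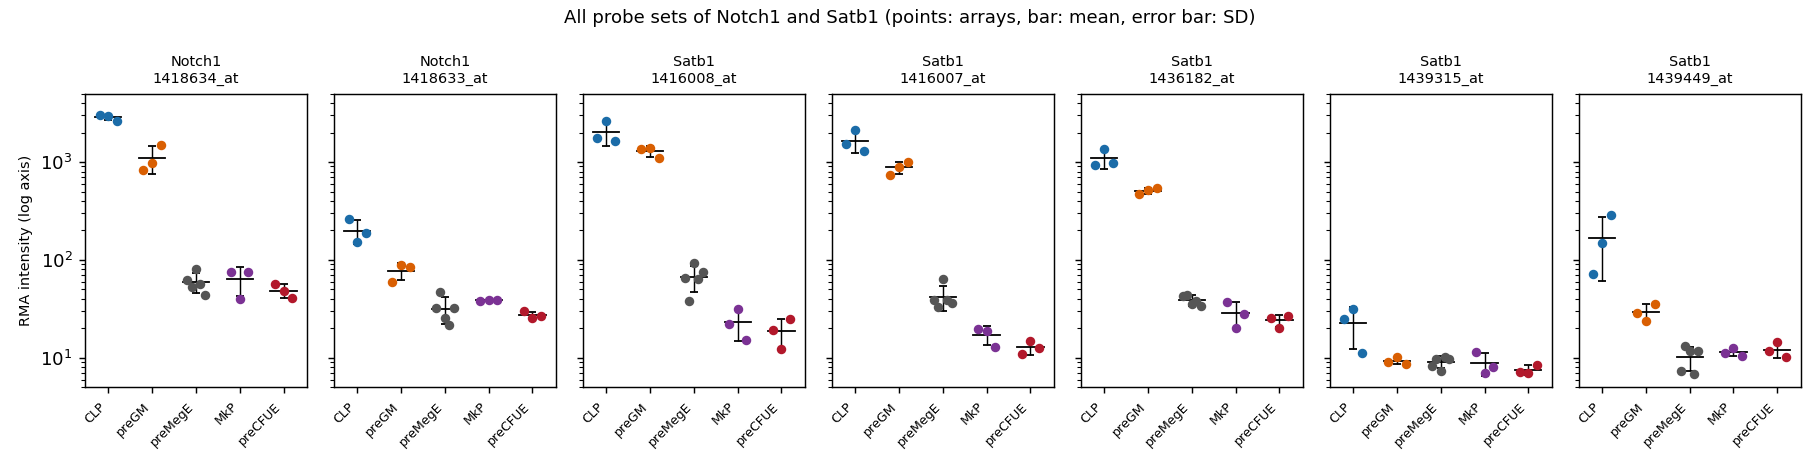
RMA intensity on a log axis for the 2 probe sets of Notch1 and the 5 of Satb1 in 5 fractions (points are arrays, bars means and error bars SD; n = 5 for preMegE, n = 3 for the others). CLP arrays lie above preGM arrays in all 7 panels, and the preMegE mean is below the preGM mean in each, by the least in Satb1 1439315_at (9.10 against 9.33). The panels show 2 genes on the same arrays and are not independent. The share of all probe sets whose CLP and preGM arrays do not overlap is not given here.

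The remaining T lineage factors were dim. Lef1, the partner of beta-catenin related to Tcf7, had fraction means from 13.9 to 21.5 on 1454734_at and from 8.72 to 10.4 on 1421299_a_at. Gata3, the zinc finger factor of early T and helper T cells, had means from 11.03 to 18.7 on its 1 probe set, 1448886_at. Bcl11b, which completes T lineage commitment, had means from 10.1 to 22.1 on 1435227_at and from 8.13 to 16.4 on its other 3 probe sets. None of these 7 probe sets passed the test over the 5 fractions in limma (lowest adjusted p = 0.0950, for Bcl11b 1435227_at, the 1 with an unadjusted p under 0.05). At such levels a dim reading does not show that the transcript is absent.

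Lef1 was highest in CLP, at 21.9, 15.9 and 26.7 (21.5 ± 5.41, n = 3), against 11.5, 18.01, 13.7, 13.7 and 12.8 in preMegE (13.9 ± 2.44, n = 5). These arrays overlapped, and the log2 fold change of 0.32 ± 0.10 did not pass (adjusted p = 0.0516). Without CLP replicate 2, the lowest of the 3, it was 0.43 and passed (adjusted p = 0.0099), as did CLP against preCFUE (0.38, adjusted p = 0.0276). Bcl11b gave 1 call: 1435227_at read 24.7, 23.4 and 18.3 in preGM (22.1 ± 3.40, n = 3) and 9.23, 10.2 and 10.8 in preCFUE (10.1 ± 0.79, n = 3), lower in preCFUE by 0.54 ± 0.15 on the log2 scale (adjusted p = 0.0324). These arrays did not overlap. The difference did not pass without preGM replicate 1 (-0.50, adjusted p = 0.112), preGM replicate 2 (-0.52, adjusted p = 0.105) or preCFUE replicate 1, 2 or 3 (-0.52, -0.55 and -0.56, adjusted p = 0.104, 0.0827 and 0.0770), nor with the mean over the 4 probe sets (-0.18, adjusted p = 0.0779). Gata3 read 16.8, 12.5 and 26.9 in preGM (18.7 ± 7.44, n = 3), its highest mean, and 10.3, 11.9 and 10.8 in preCFUE (11.03 ± 0.80, n = 3), its lowest. That difference, -0.34 ± 0.12, did not pass (adjusted p = 0.128), although it did without preGM replicate 2 (-0.47, adjusted p = 0.0259).

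Over the 7 genes, taken by their main probe sets, 4 passed the test over the 5 fractions (Notch1, Notch2, Hes1 and Satb1), against 32.3% of all genes. Of the 17 probe sets, 9 passed, against 23.7% of all 45037 probe sets. These 9 belonged to the same 4 genes, with 5 of Satb1 and 2 of Notch1. Probe sets of 1 gene on the same arrays are not independent. In CLP against preGM, 2 of 7 were higher (Notch1 and Hes1) and 0 lower, where 14.8% of all genes passed (4.18% higher in CLP and 10.6% lower). In preMegE against preGM, 2 of 7 were lower (Notch1 and Satb1) and 0 higher, where 7.84% of all genes passed (2.53% higher in preMegE and 5.31% lower). The median log2 fold change of the 7 was 0.22 in CLP against preGM and -0.20 in preMegE against preGM, beside medians over all genes of 0.01 and 0.01.

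Among the megakaryocyte and erythroid fractions, 2 of 7 members were lower in MkP than in preMegE (Notch2 and Satb1), beside 9.04% of all genes passing in either direction. In preCFUE against preMegE 1 was lower (Satb1), beside 7.67%. In MkP against preCFUE 0 of 7 passed in limma, beside 14.2%, and at an unadjusted p under 0.05 there was 1 (Notch2).

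The wider comparisons set CLP and preGM apart from the other 3 fractions. Against preMegE, 3 of 7 were higher in CLP (Notch1, Hes1 and Satb1), beside 22.8% of all genes, and against preCFUE the same 3, beside 27.1%. Against MkP, 2 were higher in CLP (Notch1 and Satb1), beside 11.2%. Against preGM, 2 were lower in MkP (Notch1 and Satb1), beside 9.65%, and 3 in preCFUE (Notch1, Satb1 and Bcl11b), beside 12.5%. For Notch1 the CLP differences were 5.26 against preMegE, 5.21 against MkP and 5.48 against preCFUE, and for Satb1 they were 4.62, 5.69 and 5.85 (all on the log2 scale). Against preGM, Notch1 had -3.81 in MkP and -4.07 in preCFUE, and Satb1 had -5.07 and -5.23. Comparisons with CLP share its arrays, as those with preGM and preMegE share theirs.

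**Figure D3:**
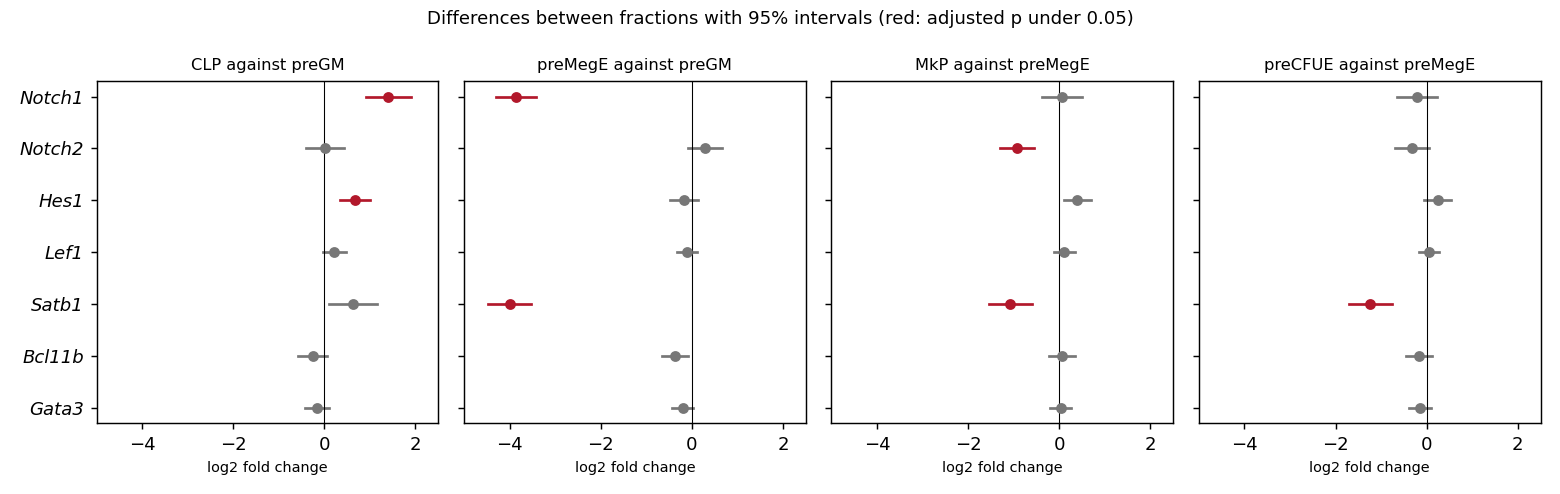
Log2 fold change, on the log2(intensity + 16) scale, of 7 genes in 4 comparisons, as points with 95% intervals and in red where limma's adjusted p was under 0.05. Notch1 (-3.86) and Satb1 (-3.996) lie far from 0 in preMegE against preGM, while the intervals of Lef1 and Gata3 include 0 in all 4 panels.

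The genes most like each member over the 17 arrays were sought among 8080 genes with a mean of at least 64 in 1 fraction or more. For Notch1 they were Kbtbd11 (r = 0.992), Flt3 (r = 0.988), the cytokine receptor that the CLP gate selects as Flk2, and Dntt (r = 0.986), the enzyme that adds bases at antigen receptor joins. Like Notch1 they had a higher mean in CLP than in preGM: Flt3 had 2118 in CLP and 1090.1 in preGM, and Dntt 7813 and 1866. For Satb1 they were Hmga2, a chromatin protein of immature cells, Slc43a2, an amino acid transporter, and Macroh2a1, a histone variant (r = 0.988 for each). For Hes1 they were Crb3 (r = 0.890), Krt42 (r = 0.844) and Tmem108 (r = 0.835), and for Notch2 Adcy7, an enzyme that makes cyclic AMP (r = 0.841), Aff1 (r = 0.827) and Rnf213 (r = 0.824). Notch1 and Satb1 correlated with each other at r = 0.964. These values describe 17 arrays that fall into 5 fractions, and genes on the same arrays share the difference between fractions.

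Of 70 other genes of the Notch pathway and the T lineage, 66 were measured. In CLP against preGM 6 were higher, 9 lower and 51 did not pass, beside 4.18% of all genes higher and 10.6% lower. In preMegE against preGM 5 were higher, 4 lower and 57 did not pass, beside 2.53% of all genes higher and 5.31% lower. The median log2 fold change was 0.02 and 0.03. Of the 15 calls in CLP against preGM, 12 did not pass when the model held only these 6 arrays, and the 3 that did were Foxo1, Gata1 and Gata2. Of the 9 in preMegE against preGM, 1 (Adam17) did not pass in a model of those 8 arrays alone. The other receptors, Notch3 and Notch4, were dim, with fraction means from 8.81 to 13.4, and neither passed in limma in either comparison, nor had an unadjusted p under 0.05 (0 of 2). Of the ligands Dll1, Dll3, Dll4, Jag1 and Jag2, 0 of 5 passed in either by limma (2 in CLP against preGM and 0 in preMegE against preGM had an unadjusted p under 0.05), with means from 8.59 in Dll3 to 38.6 in Jag2. Rbpj, the DNA-binding partner of the cut receptor, had 389 in CLP and 581 in preGM (-0.58, adjusted p = 0.0685), and 0 of the 5 measured genes of the nuclear complex passed in either by limma (1 in CLP against preGM and 0 in preMegE against preGM had an unadjusted p under 0.05).

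Of 17 measured genes of receptor processing, 4 were lower and 0 higher in CLP than in preGM, beside 10.6% and 4.18% of all genes. They were Adam10 (565 against 1331, -1.31, adjusted p = 0.0061) and Adam17 (173 against 383, -1.12, adjusted p = 0.0111), the surface proteases that cut Notch, Mib1 (166 against 388, -1.22, adjusted p = 0.0087), which acts on ligands, and Pofut1 (53.8 against 136, -1.21, adjusted p = 0.0406), which adds fucose to the receptor. Pofut1 lost its call when any 1 of 9 arrays was left out, among them CLP replicate 3 (-0.97, adjusted p = 0.163), and Adam17 did without CLP replicate 3 (-0.89, adjusted p = 0.0530) and after quantile normalization (-0.68, adjusted p = 0.0576). With only the CLP and preGM arrays in the model none of the 4 passed, with adjusted p = 0.1505 for Adam10 and for Mib1, 0.0868 for Adam17 and 0.175 for Pofut1. In preMegE against preGM, Mfng, a glycosyltransferase that tunes ligand choice, was lower (85.0 against 232, -1.30, adjusted p = 6.11e-05), as was Adam17 (206 against 383, -0.89, adjusted p = 0.0243), and Furin, which cuts the receptor during its maturation, was higher (133 against 49.5, 1.12, adjusted p = 0.0107). Here Adam17 lost its call when any 1 of 6 arrays was left out (-0.86 without preGM replicate 2, adjusted p = 0.1001), and Furin did without preGM replicate 2 (1.09, adjusted p = 0.0525).

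Among 9 other genes listed as Notch targets, 1 was lower in CLP than in preGM, beside 10.6% of all genes. This was Dtx3l, a ubiquitin ligase (381 against 637, -0.73, adjusted p = 0.0418). Whether Dtx3l responds to Notch in these cells was not tested. Its call was lost when any 1 of 11 arrays was left out (-0.50 without CLP replicate 3, adjusted p = 0.173). For Dtx3l, quantile normalization gave -0.29 (adjusted p = 0.503) and the mean over its probe sets -0.33 (adjusted p = 0.267). Of the 9 listed genes, 5 had an unadjusted p under 0.05 in CLP against preGM, 4 of them higher in CLP. The share of all genes at that unadjusted threshold is not given here, for this or the other lists, so such counts have no background beside them. The targets Nrarp (53.8 against 32.6, 0.52, adjusted p = 0.0731) and Dtx1 (68.1 against 36.2, 0.59, adjusted p = 0.196) did not pass, nor did Il2ra, an interleukin-2 receptor chain (10.5 against 7.47, 0.18, adjusted p = 0.0510), Heyl (16.8 against 11.1, 0.27, adjusted p = 0.107) or Hey1 (30.3 against 22.3, 0.28, adjusted p = 0.139). Ptcra, the pre-T cell receptor alpha chain, had means from 9.96 to 13.0 over the 5 fractions and did not pass. In preMegE against preGM 0 of 9 passed in limma, and 0 had an unadjusted p under 0.05.

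**Figure D4:**
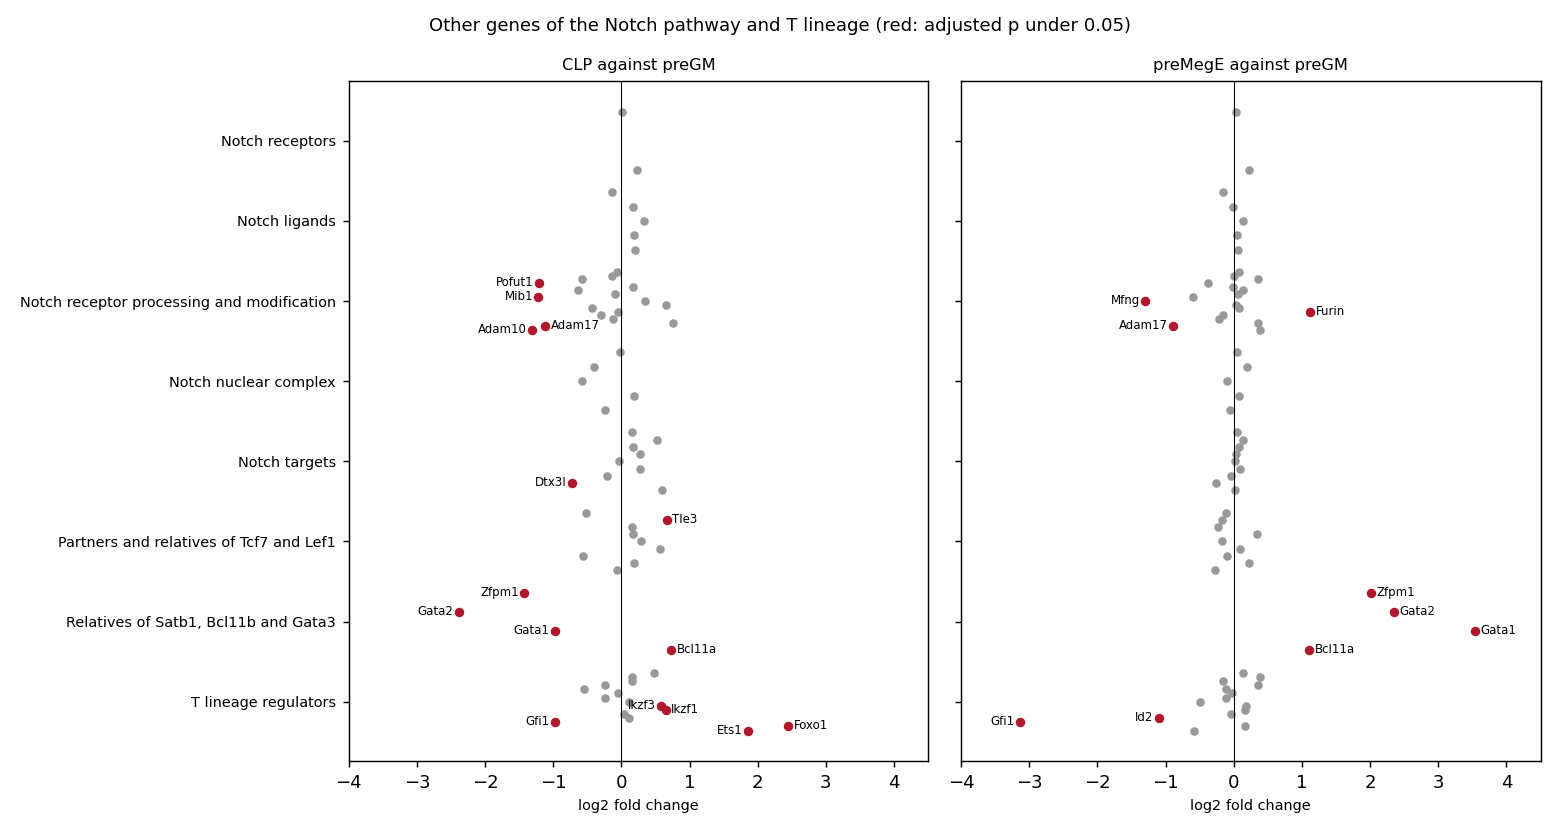
Log2 fold change, on the log2(intensity + 16) scale, of 66 other genes of the Notch pathway and T lineage by group, each gene a point, in CLP against preGM (left) and preMegE against preGM (right), with names and red points where limma's adjusted p was under 0.05. Of these genes 15 passed on the left and 9 on the right, and the 5 ligands lie between -0.13 (Jag2) and 0.34 (Dll4) on the left.

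Relatives of the T lineage factors were measured by 4 genes, and all 4 passed in both comparisons (1 higher and 3 lower in CLP, 4 higher in preMegE). Of all genes, 14.8% passed in CLP against preGM and 7.84% in preMegE against preGM. Gata1 and Zfpm1 are also on the marker list shared by preMegE, MkP and preCFUE, so their calls restate a difference between the fractions. Gata2, the progenitor and mast cell relative of Gata3, had 51.6 in CLP, 335 in preGM and 1751 in preMegE, lower in CLP by 2.38 ± 0.22 and higher in preMegE by 2.35 ± 0.20 on the log2 scale (adjusted p = 1.27e-05 and 2.39e-06). Gata1, the erythroid and megakaryocyte member, had 37.4, 89.2 and 1219 (-0.98 and 3.54, adjusted p = 0.0021 and 1.38e-09), and its partner Zfpm1 had 43.7, 148 and 648 (-1.42 and 2.02, adjusted p = 0.0020 and 1.88e-05). Bcl11a, the relative of Bcl11b, was higher than in preGM both in CLP (1193 against 709, 0.73, adjusted p = 0.0359) and in preMegE (1536, 1.11, adjusted p = 0.0014). The CLP value for Bcl11a did not pass without CLP replicate 1 or 3, or preGM replicate 1 or 2 (adjusted p up to 0.153). Of 9 measured partners and relatives of Tcf7 and Lef1, 1 was higher and 0 lower in CLP than in preGM. Of all genes, 4.18% were higher and 10.6% lower. The 1 was Tle3, a corepressor that Tcf7 and Lef1 recruit (347 against 213, 0.67, adjusted p = 0.0025). In preMegE against preGM 0 of 9 passed in limma, and 1 had an unadjusted p under 0.05. In the model of CLP and preGM arrays alone, Zfpm1 (adjusted p = 0.0587), Bcl11a (0.227) and Tle3 (0.0576) did not pass.

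Of 15 measured regulators active in T and other lymphoid cells, 4 were higher and 1 lower in CLP than in preGM, beside 4.18% and 10.6% of all genes. Foxo1 (979.6 against 168, 2.45, adjusted p = 1.91e-06) and Ets1 (270.4 against 56.3, 1.85, adjusted p = 0.0021) were higher, as were Ikzf1 (1713 against 1070.1, 0.65, adjusted p = 0.0179) and Ikzf3 (42.1 against 22.3, 0.58, adjusted p = 0.0392), both Ikaros family factors. Gfi1, a repressor active in granulocyte and lymphoid cells, was lower in CLP (115 against 219, -0.98, adjusted p = 0.0461) and in preMegE (10.2 against 219, -3.14, adjusted p = 1.90e-06). The CLP difference in Gfi1 lost its call when any 1 of 15 arrays was left out (-0.59 without CLP replicate 1, adjusted p = 0.145), that in Ikzf3 with any 1 of 9 (0.48 without CLP replicate 3, adjusted p = 0.153) and that in Ikzf1 without preGM replicate 1 or 2 (0.67 and 0.64, adjusted p = 0.0530 and 0.0617). With CLP and preGM arrays alone in the model, Ets1 (adjusted p = 0.130), Ikzf1 (0.139), Ikzf3 (0.149) and Gfi1 (0.307) did not pass. Id2, an inhibitor of E proteins, was lower in preMegE (11.1 against 42.2, -1.10, adjusted p = 0.0019).

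Beside each marker count below in CLP against preGM, 4.18% of all genes were higher in CLP and 10.6% lower. Markers of mature T cells were mostly dim. Of 14 measured, Cd247 (50.6 in CLP against 14.8 in preGM, adjusted p = 8.08e-05) and Lat (108 against 55.7, adjusted p = 0.0016) were higher in CLP and 12 did not pass, among them Cd3d (13.8 against 11.8), Cd3e (53.0 against 36.4) and Cd3g (8.82 against 7.44). The summed intensity of the 14 was 484 to 526 over CLP arrays, 314 to 367 over preGM, 341 to 417 over preMegE, 443 to 497 over MkP and 320 to 367 over preCFUE. Of the 14, only 2 had a mean of at least 64 in CLP and 2 in MkP, so these sums come largely from dim readings. The summed intensity of 9 measured B cell markers was 1902 to 2155 over CLP arrays and at most 250.5 on any array of the other fractions, with 5 of 9 higher in CLP than in preGM. That of 6 dendritic cell markers was 311 to 398 over CLP arrays and at most 167 on any other array, and 2 of 6 were higher in CLP than in preGM. These were Siglech (37.4 against 19.3, adjusted p = 0.0153) and Ly6d (202 against 17.8, adjusted p = 1.61e-08), which is also one of the CLP markers. Of 10 measured markers of NK and innate lymphoid cells, Klrd1 was higher in CLP (81.7 against 22.8, adjusted p = 1.93e-04) and 9 did not pass. The 10 had summed intensities of 431 to 563 over CLP arrays and 374 to 543 over preGM. Their sums were 541 to 693 over preMegE, 446 to 604 over MkP and 160 to 200 over preCFUE. The part of such markers in the CLP differences of Notch1, Hes1 and Satb1 was not tested. The log2 ratio of the 3-prime to the 5-prime Gapdh control, which rises as RNA is shortened, was 5.12, 3.00 and 4.08 on CLP arrays and 2.72, 3.15 and 3.94 on preGM arrays, and CLP replicate 1 had the highest value of the 17.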

How the data were processed

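RNA of sorted bone marrow fractions was labelled after 2 rounds of amplification and hybridised to Affymetrix 3-prime arrays, per the series' design text. The deposited intensity values are RMA values on a linear scale, which the authors made with RMA, per the design text and the submitters' processing notes. The version is not given in the sources used here. The design text also names a filter on SD over mean above 0.5, which the deposited table of 45101 probe sets does not carry. Each array took its fraction from the gate in its title, and the free-text description, which names another gate on every array, was not used. Names came from the platform annotation: 34945 probe sets had 1 symbol, 932 had several, 9160 had none there and 64 controls were left out.

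Values were taken as log2(intensity + 16), and 47.3% of them lay under 16 before that. The files give no background level, and precision is limited by how many arrays there are. One limma model, version 3.58.1 under R 4.3.3, held all 17 arrays and 45037 probe sets with fraction as its factor (lmFit, contrasts.fit and eBayes, 12 residual and 1.82 prior degrees of freedom). P-values were adjusted by Benjamini-Hochberg over all probe sets, for a moderated F test and for 10 pairwise comparisons. The script was tested on simulated data. The main probe set of a gene was that with the highest mean, and shares of all genes are over main probe sets. Named genes were all members, the 3 most correlated genes of each member that passed the F test, and the listed pathway genes that passed in CLP or preMegE against preGM, up to 8 per list. Genes given beside these as values were chosen after their values were seen. The members and lists were chosen with earlier results of these data known. Replicate numbers in the titles were not used as a block, since no label says that they pair arrays. Deviations from the fraction means had a mean r of 0.01 over 30 same-numbered pairs (-0.54 to 0.50, 12 over 0.1). Over 84 pairs of different number it was -0.006 (-0.55 to 0.53, 29 over 0.1). Such means cannot exclude pairing in some fractions. Alternatives covered the pseudocount, scaling, filters, probe set choice, array weights, the arrays fitted, the Gapdh ratio, the replicate number and each array left out. Promoter windows came from RefSeq. Plots used matplotlib 3.10.9 (Python 3.11.15).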

Additional observations from a re-analysis of the deposited data

Results flagged for a closer look

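Among the 17 member probe sets in the 5 preMegE arrays, 2 had 1 array far from the other 4, and chance gives such a gap in about 1 in 20 groups. Satb1 probe set 1416007_at read 63.99 on preMegE replicate 3, and the next array read 39.4. Bcl11b probe set 1435227_at read 20.5 on preMegE replicate 2, and the next array read 12.6. The other fractions have 3 arrays each and were not examined in this way.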

How the results depend on the processing

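Of the 20 member differences that passed, 13 passed under every one of 29 alternatives that tested them, 7 did not under 1 or more, and 0 changed sign. Of the 24 pathway gene differences that passed, 10 passed under every one, 14 did not under 1 or more, and 0 changed sign. Counts of members passing, of 7, moved as follows. Of the members, only Notch1 and Satb1 met the filter on SD over mean. Counts under that filter, also where they set the low end of a range, are therefore of 2 and not of 7. CLP against preGM gave 2, but 1 with the filter on SD over mean and 0 in a fit of only the fractions compared, which has fewer arrays. It gave 3, with Satb1, under pseudocount 64, quantile normalization and the mean over probe sets. MkP against preMegE gave 2, but 1 with quantile normalization, with the mean over probe sets and with the filter on SD over mean. The F test gave 4, but 3 with quantile normalization, the mean over probe sets or the replicate block. It gave 5 with array weights or the Gapdh covariate. With the filter on SD over mean, which leaves fewer genes tested, both of the 2 members tested passed. CLP against preMegE gave 3, with a range of 2 to 4 over these settings; CLP against preCFUE and preCFUE against preGM gave 3, with 2 to 3, and CLP against MkP gave 2, with 2 to 3. Array weights raised preMegE against preGM and MkP against preGM from 2 to 4, and median centring gave 3 in MkP against preGM. MkP against preCFUE gave 0, but 1 (Notch2) with median centring, with only main probe sets tested, with the 40th percentile filter, with array weights and in a fit of only the fractions compared. For the other alternatives the cause was not tested. With 1 array left out, counts ran from 1 to 2 in CLP against preGM and in MkP against preMegE, from 0 to 1 in MkP against preCFUE, from 2 to 3 in CLP against MkP, MkP against preGM and preCFUE against preGM, from 2 to 4 in CLP against preCFUE, from 3 to 4 in CLP against preMegE and from 3 to 5 in the F test.

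Whether the replicate numbers pair arrays is not stated in the labels. With the number as a replicate block, MkP against preMegE gave 1 member and preCFUE against preMegE 0: Satb1 had -1.02 (adjusted p = 0.110) and -1.18 (adjusted p = 0.0679), and Bcl11b in preCFUE against preGM had an adjusted p of 0.103. Among the differences given here, sign changes were found only in those that did not pass. Notch2 in CLP against preGM was -0.16 with median centring and -0.036 with the Gapdh ratio as a covariate, and -0.20 to 0.21 with 1 array left out. Notch1 in MkP against preMegE was -0.0023 with median centring and -0.062 with the replicate block, and -0.069 to 0.29 with 1 array left out. Gata3 in CLP against preGM was -0.30 to 0.00063 with 1 array left out. Differences in genes near the array median, as in Lef1, Bcl11b and Gata3, are limited by signal over background.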
